A study of Mus musculus with 55 samples.

Results

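The genes described here are 7 genes of the endoderm that lines the yolk sac and builds the liver, Afp, Apoa1, Apoa4, Apob, Ttr, Alb and Hnf4a, out of 24421 genes in the allele-specific count tables of the embryos. They were chosen by name as a known tissue programme, with earlier results of these data in view, and not by a threshold on measured values. The study asked what mutations in the ADD domains of the DNA methyltransferase DNMT3A and its cofactor DNMT3L do to oocytes, sperm and the embryos that follow. RNA was sequenced from 52 single oocytes and 3 embryos. The embryo libraries are labelled E9 and came from oocytes homozygous for both mutations, whose genotype is given as Dnmt3aADA/ADA and Dnmt3LD124A/D124A on the maternal allele with a wild-type paternal allele. The double mutant oocytes were fertilized in vitro with sperm of JF1, an inbred strain that differs from C57BL/6J, the main background of the mutant females, at many positions, so that reads over such positions can be given to the maternal or the paternal allele.

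All 3 embryos shared this genotype. Columns that the deposited allelic tables hold for wild-type embryos match no sample of the series by its labels and were not analysed here, so no comparison in the embryos separates mutant from control. The oocytes were fully grown oocytes (FGOs) from females 10 to 12 weeks old, of which 18 were wild type, 8 carried the DNMT3L-ADD mutation alone (Dnmt3a+/+ Dnmt3LD124A/D124A), 8 the DNMT3A-ADD mutation alone (Dnmt3aADA/ADA Dnmt3L+/+) and 8 both mutations. A further 10 libraries came from wild-type MII oocytes, the mature stage that follows the FGO. The mutations substitute residues of the proteins, so that transcript levels do not check the genotype labels. Two-cell embryos were transferred to ICR foster mothers, an outbred stock, and the tissue of the uterus around an embryo is therefore neither C57BL/6J nor JF1.

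Visceral endoderm is the outer epithelium of the early embryo and the yolk sac. It takes up maternal proteins by endocytosis, breaks them down, and secretes lipoproteins and plasma carrier proteins before the liver can do so. Much of the same secretory programme is later run by hepatocytes, under transcription factors of the HNF4, HNF1, FOXA and GATA families. Of the members, Afp encodes alpha-fetoprotein, the main plasma protein of the fetus, and Alb encodes serum albumin, the main plasma protein after birth. Apob encodes the large structural protein of the lipoproteins that carry triglyceride and cholesterol, Apoa1 the main protein of high-density lipoprotein, and Apoa4 an apolipoprotein of intestine, liver and yolk sac. Ttr encodes transthyretin, a carrier of thyroid hormone and of the retinol-binding protein. Hnf4a encodes the nuclear receptor that binds regulatory elements of many of these genes.

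Upstream sequences of 3 members are shown, because Afp and Alb lie side by side on chromosome 5 yet only Afp was detected in the embryos, and because Hnf4a is the regulator among the members. Each is the 250 bases before a RefSeq start site in GRCm38.p6, the assembly also called mm10, on the plus strand. The stretches are chr5:90490464-90490713 for Afp, chr5:90460620-90460869 for Alb and chr2:163546905-163547154 for the downstream start of Hnf4a. Capitals mark matches to GTTAAT, a half-site of HNF1 factors, which reads ATTAAC where the match is on the minus strand, and to TATAAA, the TATA box.
Afp: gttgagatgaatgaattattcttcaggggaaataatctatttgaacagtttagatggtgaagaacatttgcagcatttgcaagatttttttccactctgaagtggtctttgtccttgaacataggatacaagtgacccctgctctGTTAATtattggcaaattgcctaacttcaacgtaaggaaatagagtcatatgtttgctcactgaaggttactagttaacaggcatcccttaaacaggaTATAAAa
Alb: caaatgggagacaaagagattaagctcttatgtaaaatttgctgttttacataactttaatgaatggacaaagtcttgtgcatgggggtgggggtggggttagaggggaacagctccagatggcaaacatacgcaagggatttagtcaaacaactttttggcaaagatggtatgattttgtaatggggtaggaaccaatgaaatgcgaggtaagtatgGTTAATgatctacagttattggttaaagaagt
Hnf4a: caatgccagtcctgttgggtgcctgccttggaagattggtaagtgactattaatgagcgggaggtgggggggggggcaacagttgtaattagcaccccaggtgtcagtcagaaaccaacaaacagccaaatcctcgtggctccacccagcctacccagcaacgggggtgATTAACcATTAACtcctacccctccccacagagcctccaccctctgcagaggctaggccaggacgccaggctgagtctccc
GTTAAT stood at 105 to 100 bases before the start in Afp, at 32 to 27 bases before it in Alb, and at 2 places in the downstream Hnf4a start, 81 to 76 and 74 to 69 bases before it. Among 32851 RefSeq promoters of the same length, 6.43% held GTTAAT on either strand. TATAAA, held by 12.4% of the promoters, was found at 7 to 2 bases before the start in Afp. It was also found in the 250 bases before Apob, at 60 to 55 bases before the start. AGATAA, a site of GATA factors held by 9.99% of the promoters, was found once among the members, before the upstream start of Hnf4a. CAAAGTCC, the core of an HNF4 site, was found in none of the 6 members searched (1.20% of all promoters), nor was TGTTTAC, a FOXA site (3.17%). The windows of Apoa1 and Apoa4 held none of the 5 motifs searched. All starts here are RefSeq starts and differ from the gene positions given below, which follow the deposited counts. By those positions the windows of Afp and Alb end before the gene. Those of Apoa1, Apoa4, Apob and the upstream start of Hnf4a end inside it. These matches are letters in a window and were not tested as binding sites.

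The embryo libraries held 7534598, 8547786 and 6998944 allelic counts in embryos 1, 2 and 3. A level is given below in CPM, the maternal and paternal counts of a gene together for every 1000000 allelic counts of that embryo. Because only reads over a polymorphism enter, levels are compared between embryos and not between genes. The 3 embryos differed far beyond counting error, with a chi-square per degree of freedom between any pair of embryos of at least 41.9. Of the 7 members, 5 were counted at 10 or more in every embryo, Ttr was counted a few times and Alb not at all.

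The 5 detected members were lowest in embryo 1, higher in embryo 3 and highest in embryo 2. Summed over the members, the level was 107 CPM in embryo 1, 2081 CPM in embryo 2 and 840 CPM in embryo 3. All 5 had at least 2 times the level of embryo 1 in embryo 2, where 17.7% of the 13116 genes with 10 counts in any embryo did, and all 5 did so in embryo 3, where 9.46% of those genes did. The order embryo 2, embryo 3, embryo 1 held for all 5 members and for 20.7% of the genes. With 1 group of 3 embryos this is a description of these embryos, without a test. In libraries of mixed cells, fewer cells of a type and less RNA per cell cannot be told apart. How much yolk sac was kept with each embryo is not given in the sources used here.

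**Figure D1:**
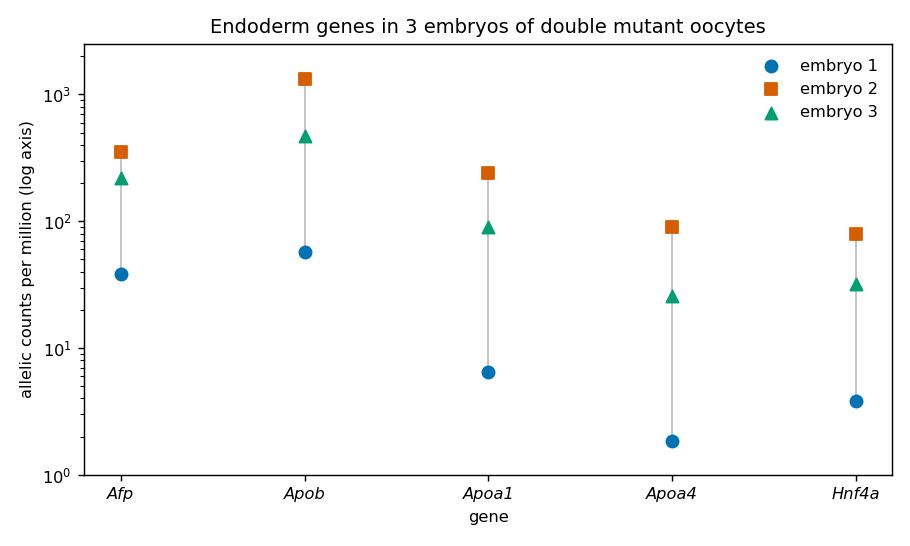
Level of each detected member (x axis) in allelic CPM on a log axis (y axis), with 1 point for each of the 3 embryos and a line from the lowest to the highest. For all 5 genes embryo 1 is lowest, embryo 3 intermediate and embryo 2 highest, from 38.1 to 353 CPM for Afp and from 57.1 to 1320 CPM for Apob.

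Among the secreted plasma proteins, Afp (chromosome 5, 90490737 to 90508907) had 287 allelic counts in embryo 1, 3015 in embryo 2 and 1543 in embryo 3, or 38.1, 353 and 220 CPM (mean 204 ± 158, SD, n = 3). It had the smallest spread of the 5 members, with embryo 2 standing 9.26 times above embryo 1 (95% interval for counting error 8.201 to 10.5) and embryo 3 standing 5.79 times above it (5.10 to 6.59). Albumin, whose gene lies just upstream of Afp, had 0 counts of either allele in all 3 embryos. A count of 0 allows at most 3 counts here, or 0.398, 0.351 and 0.429 CPM in embryos 1, 2 and 3. Alb (chromosome 5, 90460897 to 90476602) could also lack reads over a polymorphism, which the tables do not show. Ttr (chromosome 18, 20665250 to 20674324) had 0, 6 and 1 counts, all of them maternal. No ratio between embryos was read from so few counts.

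The apolipoprotein members differed most between embryos. Apob (chromosome 12, 7977648 to 8016835) had 430, 11280 and 3299 allelic counts in embryos 1, 2 and 3, or 57.1, 1320 and 471 CPM (mean 616 ± 644, SD, n = 3). Its level in embryo 2 was 23.1 times that in embryo 1 (21 to 25.5), and its level in embryo 3 was 8.26 times that in embryo 1 (7.47 to 9.15). Apoa1 (chromosome 9, 46228580 to 46230466) had 49, 2044 and 635 counts, or 6.50, 239 and 90.7 CPM (mean 112 ± 118, SD, n = 3). For this gene of high-density lipoprotein, embryo 2 was 36.8 times (27.7 to 49.9) and embryo 3 was 14 times (10.4 to 19.1) above embryo 1. Apoa4, which lies beside it (chromosome 9, 46240696 to 46243459), had 14, 768 and 179 counts, or 1.86, 89.8 and 25.6 CPM (mean 39.1 ± 45.5, SD, n = 3). Its 2 ratios were 48.4 (28.6 to 88.9) and 13.8 (7.99 to 25.7), the first being the highest of the members and also the least precise, since it rests on 14 counts in embryo 1.

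The regulator Hnf4a (chromosome 2, 163506808 to 163572910) followed the same order. It had 29 allelic counts in embryo 1, 675 in embryo 2 and 224 in embryo 3, or 3.85, 79.0 and 32 CPM (mean 38.3 ± 37.9, SD, n = 3). Embryo 2 was 20.5 times (14.2 to 30.9) and embryo 3 8.32 times (5.63 to 12.7) above embryo 1. In every member the intervals of the ratio to embryo 1 lay far above 1, while the ratios of embryo 2 to embryo 3 were smaller, from 1.60 for Afp to 3.51 for Apoa4. PCR copies are not independent molecules, so that these intervals cover counting error only.

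The spread of the members was wide beside that of other genes. The highest level over the lowest had a median of 1.49 over the 10805 genes with 10 counts in every embryo, a 95th percentile of 5.37 and a 99th percentile of 15.9. The same ratio ran from 9.26 to 48.4 over the 5 members, with a median of 23.1, and Afp was the only 1 of them under the 99th percentile. At 10 counts in every embryo, the members' median of 23.1 stood above 99.48% of the genes. Outside the members, 3 of the 7445 genes with 100 counts in every embryo had a ratio that large. This higher filter leaves out Apoa1, Apoa4 and Hnf4a themselves, with 49, 14 and 29 counts in embryo 1. The nearest to the members' mean profile by Euclidean distance of log2 levels over the 3 embryos was Cubn, which encodes the endocytic receptor cubilin of visceral endoderm, at 36.9, 1691 and 582 CPM and a distance of 0.71. The second was the imprinted gene Sfmbt2, at 14.3, 273 and 359 CPM (distance 1.30). The third was the cardiac actin gene Actc1, which ran the opposite way at 966, 16.4 and 40.9 CPM (distance 7.67).

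The order did not come from the maternal allele alone. Paternal counts alone, scaled to CPM by the paternal total of each embryo in an alternative chosen after seeing the data, gave levels of Afp of 36.2, 505 and 255 CPM in embryos 1, 2 and 3. By this measure embryo 2 was 13.9 times above embryo 1 for Afp, 27.4 times for Apoa1, 24.1 times for Apoa4, 22.5 times for Apob and 23.9 times for Hnf4a. Embryo 3 was between 6.27 times (Apob) and 15.4 times (Apoa1) above embryo 1. A base of the ICR foster mother can match either strain, and how reads were assigned to alleles is not given in the sources used here.

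Other genes of the same tissues were described by lists that hold none of the members. A listed gene counts as detected at 10 counts in any embryo, so it can pass through the embryo in which it is high. Some passed through embryo 2 or 3 with fewer than 10 counts in embryo 1. Counts under 3 were set to 3 for the ratios. By the same rule, 17.7% of the 13116 genes were at least 2 times higher in embryo 2 than in embryo 1. Of 12 genes for lipoproteins and carrier proteins, 8 had 10 counts in any embryo, and all 8 were at least 2 times higher in embryo 2 than in embryo 1, with a median of 13.1 against 0.99 over all genes. Apoe, the apolipoprotein that binds remnant receptors, stood at 66.1, 818 and 391 CPM in embryos 1, 2 and 3. Rbp4, the plasma carrier of retinol, stood at 28.3, 366 and 170 CPM. Mttp, the transfer protein that loads lipid onto Apob, stood at 24.2, 319 and 138 CPM, and Trf, the iron carrier transferrin, at 11, 237 and 93.9 CPM. All 4 had the order of the members. Apoa2 and Apoc2 were at 0 in every embryo, as Alb was.

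Of 8 genes for uptake and cell junctions of visceral endoderm, all 8 were detected and 7 were at least 2 times higher in embryo 2 than in embryo 1 (median 32.9). Besides Cubn, Dab2, an adaptor of endocytosis, stood at 149, 836 and 452 CPM and the claudin gene Cldn6 at 144, 444 and 363 CPM. The exception was Lrp2, the endocytic receptor megalin, which also acts in neural epithelium, at 147, 250 and 278 CPM. Of 10 secreted proteins of fetal liver, 6 were detected, and all 6 were at least 2 times higher in embryo 2 than in embryo 1 (median 20.9). The fibrinogen chain genes were among them, with Fgb at 2.26, 40.6 and 18 CPM, Fgg at 1.33, 31.6 and 17 CPM and Fga at 0.80, 21.6 and 4.57 CPM. F2, prothrombin, stood at 0.66, 16.4 and 4.72 CPM. Fga, F2 and Serpinc1 had 6, 5 and 0 counts in embryo 1 and passed the filter through embryos 2 and 3. The ratio of Serpinc1 rests on its 0 counts being set to 3.

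The transcription factors were less uniform. All 12 on the list were detected, of which 6 were at least 2 times higher in embryo 2 than in embryo 1 and 1 at least 2 times lower, with a median of 2.0. Sox17, a factor of endoderm and vessels, stood at 5.04, 45.9 and 28.6 CPM. Gata4 and Gata6, which are also expressed in heart and mesoderm, differed little, at 113, 168 and 120 CPM and at 61.6, 65.5 and 52.9 CPM. Few enzymes of the mature liver were detected. Of 8, only 2 reached 10 counts in any embryo, Tdo2 at 1.46, 10.6 and 2.14 CPM and Pck1 with 341 counts in embryo 2, all maternal, and 0 in the others. Of the others, 5 were at 0 in every embryo, as Alb was, and the tables do not show whether these genes have positions at which the strains differ.

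Markers of other tissues moved between the same embryos. Primitive red blood cell genes, made in the blood islands of the yolk sac, summed to 3874 CPM in embryo 1, 35.9 in embryo 2 and 28 in embryo 3. None of the 6 detected on that list was at least 2 times higher in embryo 2 than in embryo 1, and 5 were at least 2 times lower, where 12.6% of all 13116 genes were. On that list, the embryonic globin gene Hba-x stood at 1683, 5.15 and 1.71 CPM and Hbb-y, another, at 1617, 2.81 and 1.71 CPM. Genes of heart, neural tube and somites summed to 528, 84.7 and 286 CPM, with 6 of the 7 detected at least 2 times lower in embryo 2 than in embryo 1. Hoxb9, a homeobox gene of the posterior trunk, stood at 142, 9.83 and 39.1 CPM, and the heart factor Nkx2-5 at 62.8, 14.3 and 29.6 CPM. Under the label mouse embryo, genes of the embryo proper thus had counts in every library, with the lowest sum in embryo 2, where the somite gene Meox1 stood at 47.4 CPM and the neural gene Sox1 at 5.38 CPM. The part of these tissues in the levels of the members was not tested.

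**Figure D2:**
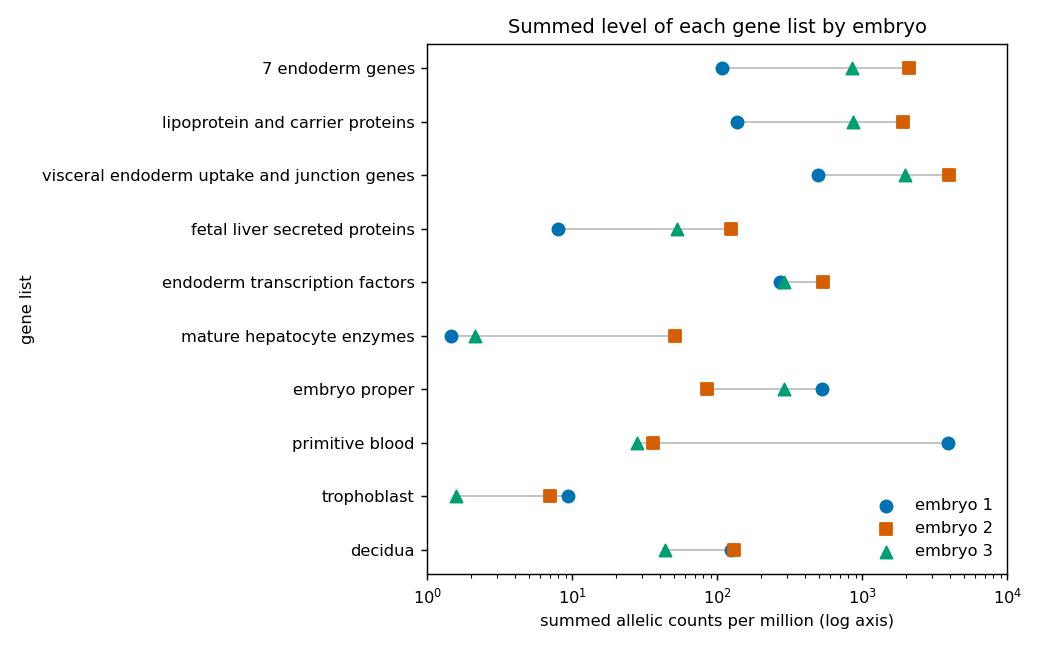
Summed allelic CPM on a log axis (x axis) of each gene list (y axis), with 1 point for each embryo. The members and the lists of lipoprotein, uptake and fetal liver genes are lowest in embryo 1 and highest in embryo 2, while the embryo proper genes run from 528 CPM in embryo 1 to 84.7 CPM in embryo 2.

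Counts of trophoblast markers were low. Of 8 trophoblast genes, 3 were detected and 5 were at 0 in every embryo, and the sum was 9.29, 7.02 and 1.57 CPM. The sum of embryo 1 came from 1 gene, which was at least 2 times lower in embryo 2. The other 2 detected genes had 0 counts in embryo 1 and were at least 2 times higher in embryo 2. Of the 13116 genes, 12.6% were that much lower and 17.7% that much higher. Of all 24421 genes, 8317 were at 0 in every embryo. Whether the trophoblast genes at 0 have positions at which the strains differ is not known, so their absence was not shown. The 8 decidua genes, 7 of which were detected and several of which embryonic mesoderm also expresses, summed to 123, 130 and 43.7 CPM, and their maternal share was 42.7%, 79.5% and 52.6% in embryos 1, 2 and 3. The muscle filament gene Des stood at 89.3, 21.1 and 14.6 CPM. The oestrogen receptor gene Esr1 had 439 maternal and 54 paternal counts in embryo 2. Prl8a2, a prolactin-family gene of decidua named after its values were seen, had 3, 53 and 13 counts, all maternal. Counts of uterine markers were thus mostly maternal in embryo 2, and their part in the members' maternal shares was not tested.

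The second measure was the maternal share, the percent of allelic counts given to the maternal allele, with its 95% Wilson interval. It was 52.7%, 60.5% and 51.8% of all allelic counts in embryos 1, 2 and 3, and the median over autosomal genes was 51.4%, 58.8% and 51.3%. The 5 detected members had counts of both alleles in every embryo.

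Afp had 158 maternal and 129 paternal counts in embryo 1 (55.1% maternal, 49.3 to 60.7), 1311 and 1704 in embryo 2 (43.5%, 41.7 to 45.3) and 681 and 862 in embryo 3 (44.1%, 41.7 to 46.6). The intervals of embryos 2 and 3 overlapped each other and lay below the chromosome 5 medians of 57.8% and 51.4%. Apob was 37.2% maternal in embryo 1 (32.8 to 41.9), 49.0% in embryo 2 (48.1 to 49.97) and 51.4% in embryo 3 (49.7 to 53.1). Embryo 1 stood apart, with 160 maternal and 270 paternal counts. The chromosome 12 medians were 50.8%, 55.7% and 51.2% in embryos 1, 2 and 3. They lay above the Apob intervals of embryos 1 and 2 and inside that of embryo 3. Hnf4a was 48.3% maternal in embryo 1 (31.4 to 65.6), 49.8% in embryo 2 (46.0 to 53.5) and 59.4% in embryo 3 (52.8 to 65.6). For this gene the interval of embryo 1 held the other embryos' values. The chromosome 2 medians were 51.3%, 56.9% and 51.5% in embryos 1, 2 and 3. They lay inside the Hnf4a interval of embryo 1, above that of embryo 2 and below that of embryo 3.

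Apoa1 had the highest share of the members in every embryo. It was 65.3% maternal in embryo 1 (51.3 to 77.1), 78.4% in embryo 2 (76.5 to 80.1) and 60.9% in embryo 3 (57.1 to 64.7), where the interval overlapped that of Hnf4a. Apoa4 varied most, at 21.4% in embryo 1 (7.57 to 47.6), 67.3% in embryo 2 (63.9 to 70.5) and 40.2% in embryo 3 (33.3 to 47.5). Both genes lie on chromosome 9, whose median share was 52.2% in embryo 1, 71.0% in embryo 2 and 51.8% in embryo 3. In embryo 2 the 15 genes within 1 Mb of them with 10 counts had a median of 71.7%, so that chromosome 9 as a whole was more maternal in that embryo than the autosomal median of 58.8%. Against this chromosome, Apoa1 was above the median in all 3 embryos and Apoa4 below it in all 3.

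**Figure D3:**
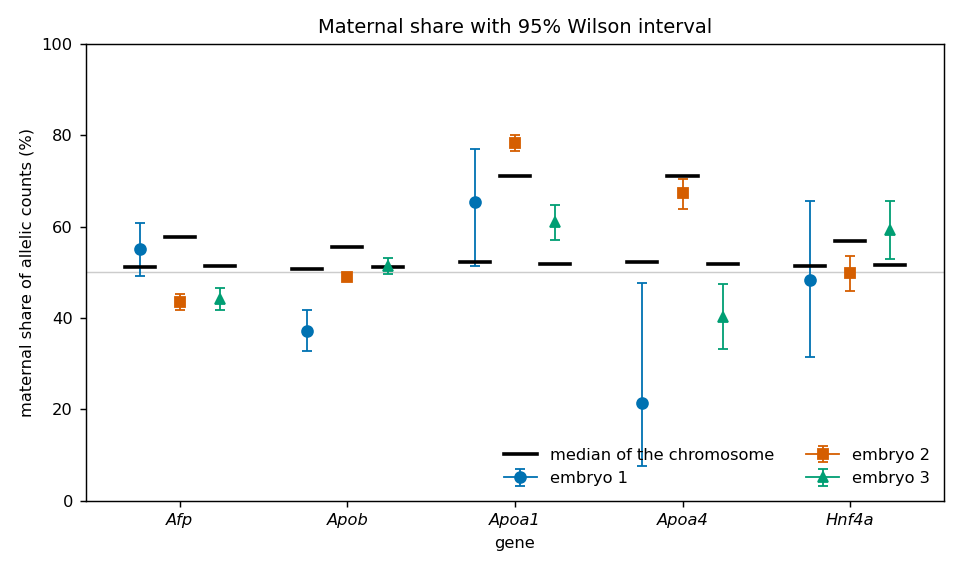
Maternal share of allelic counts in percent (y axis) of the 5 detected members (x axis) in each embryo, with 95% Wilson intervals and a black bar at the median of the gene's chromosome in that embryo. Apoa1 lies above the bar in each embryo, from 60.9% to 78.4%, and the bars of chromosome 9 stand at 71.0% in embryo 2 and near 52% in the others.

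The alleles were tested against each other in an edgeR quasi-likelihood fit blocked on embryo, over 10903 genes and with Benjamini-Hochberg adjustment. No member passed at an adjusted p under 0.05, beside 0.569% of the genes tested, and 1 of the 5 tested members had an unadjusted p under 0.05, beside 17.4% of the genes tested. That was Apoa1, whose log2 ratio of maternal to paternal counts was 1.17 ± 0.29 (SE, n = 3, unadjusted p = 0.0105, adjusted p = 0.189 from edgeR), with the maternal allele higher in 3 of 3 embryos. Over 7 alternatives its adjusted p ran from 0.0137, from DESeq2, to 0.735. The log2 ratio was -0.15 ± 0.18 for Afp (adjusted p = 0.661), -0.11 ± 0.53 for Apoa4 (0.927), -0.23 ± 0.19 for Apob (0.539) and 0.17 ± 0.23 for Hnf4a (0.710), all from edgeR with SE and n = 3. The median over all genes tested was 0.24, and was -0.01 when the allele totals were set equal. None of the 31 genes tested on the 4 endoderm lists passed either, and 5 of them had an unadjusted p under 0.05, a share near that over all genes. These p-values do not show that the alleles were equal.

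In oocytes the members were at trace levels. The total counts of the 52 libraries ran from 7832458 to 23739871, and over them the sum of the 7 members never exceeded 11.9 CPM, here scaled by the counts of all genes. Afp had a count in 51 of 52 libraries (highest 3.50 CPM), Hnf4a in 50 (highest 1.83 CPM) and Apob in 49 (highest 6.32 CPM). Apoa1 was counted in 40 libraries and Apoa4 in 39. Alb, at 0 in the embryos, had 1 to 6 counts in 20 oocyte libraries, and Ttr had a count in 7. These are counts of all reads on a gene from another kit, and are not set against the allelic levels of the embryos.

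By group, the median level of Afp was 0.83 CPM in wild-type FGOs (range 0.39 to 3.50), 1.14 in DNMT3L-ADD, 0.71 in DNMT3A-ADD and 0.81 in double mutant FGOs (0.52 to 3.42), and 0.56 in MII oocytes. The ranges of all groups overlapped. Hnf4a had medians of 0.72, 1.10, 0.82, 0.41 and 0.69 CPM in the same order, and Apob of 1.57, 0.59, 0.44, 2.28 and 0.32 CPM. A library had between 0 and 126 counts of Apob.

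The apolipoprotein genes Apoa1 and Apoa4 were lower in double mutant than in wild-type FGOs. Apoa1 had a lowest, median and highest level of 0.139, 0.653 and 1.87 CPM in the 18 wild-type FGOs (2 to 32 counts) and of 0, 0.145 and 0.910 CPM in the 8 double mutant FGOs (0 to 11 counts). Apoa4 had 0.0744, 0.515 and 1.28 CPM in wild-type FGOs (1 to 22 counts). In the double mutant it had a count in 3 of 8 FGOs, and its highest level was 0.213 CPM (3 counts). The groups overlapped for both genes. In MII oocytes Apoa1 had no count in any of 10 libraries and Apoa4 had one in 2.

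With all 42 FGOs in a quasi-likelihood fit, the log2 fold change of the double mutant against wild type was -1.52 ± 0.50 for Apoa1 (SE, adjusted p = 0.0392 from edgeR) and -3.37 ± 0.60 for Apoa4 (adjusted p = 0.000314 from edgeR). These 2 of the 5 members tested passed at an adjusted p under 0.05 and a fold change over 2, both lower, beside 1.65% of 15726 genes in either direction and 1.48% lower. The change was 0.21 for Afp (adjusted p = 0.734), -0.10 for Apob (0.919) and -0.52 for Hnf4a (0.309). Of the 16 genes tested on the endoderm lists, Cubn alone passed, at -1.20 ± 0.33 (SE, adjusted p = 0.0153 from edgeR), and it did not pass against wild-type FGOs of the mapping class described next (-1.13, adjusted p = 0.195 from edgeR).

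All double mutant FGOs and replicates 1 to 8 of the wild-type FGOs had a lower share of mapped reads than wild-type replicates 9 to 18, going by a table of the study. Against those 8 wild-type FGOs alone, Apoa1 no longer passed (log2 fold change -1.20, adjusted p = 0.386 from edgeR) and Apoa4 fell below the filter on low counts. Without that filter, an alternative chosen after seeing the data, Apoa4 passed against the same 8 FGOs (-3.05, adjusted p = 0.0297 from edgeR).

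Markers of ovarian somatic cells, which surround an oocyte and are removed by washing, were also lower in double mutant than in wild-type FGOs. A list of 10 such markers, added after the data were seen, summed to between 26.1 and 194 CPM in wild-type FGOs (median 42.1) and between 4.01 and 9.39 CPM in the double mutant (median 7.32). All 10 were tested and 9 passed as lower, beside 1.48% of the 15726 genes tested. With wild-type FGOs of the same mapping class, 6 of 9 tested passed as lower, beside 102 of 15173 genes. The markers were picked with these data seen, so that both counts are no independent test of them. The leading ones were Hsd3b1, a steroid-synthesis enzyme (mean 16.7 CPM in wild-type and 1.30 CPM in double mutant FGOs), and Cyp11a1, the enzyme that begins steroid synthesis (12.6 and 0.78 CPM). Col3a1, a collagen gene, had a count in 1 of 8 double mutant FGOs. The sum was 2.25 to 14.2 CPM in MII oocytes, where Apoa1 was not counted. For the single mutants only group values are given, without a relation by library. The median sum was 24.3 CPM both in DNMT3L-ADD FGOs (mean 29.5, range 15.3 to 60.4) and in DNMT3A-ADD FGOs (mean 37.9, range 10.2 to 99.4). The median of Apoa1 was 0.679 CPM in DNMT3L-ADD and 0.221 CPM in DNMT3A-ADD FGOs, and that of Apoa4 0.449 and 0.221 CPM. The part of these cells in the levels of Apoa1 and Apoa4 was not tested.

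**Figure D4:**
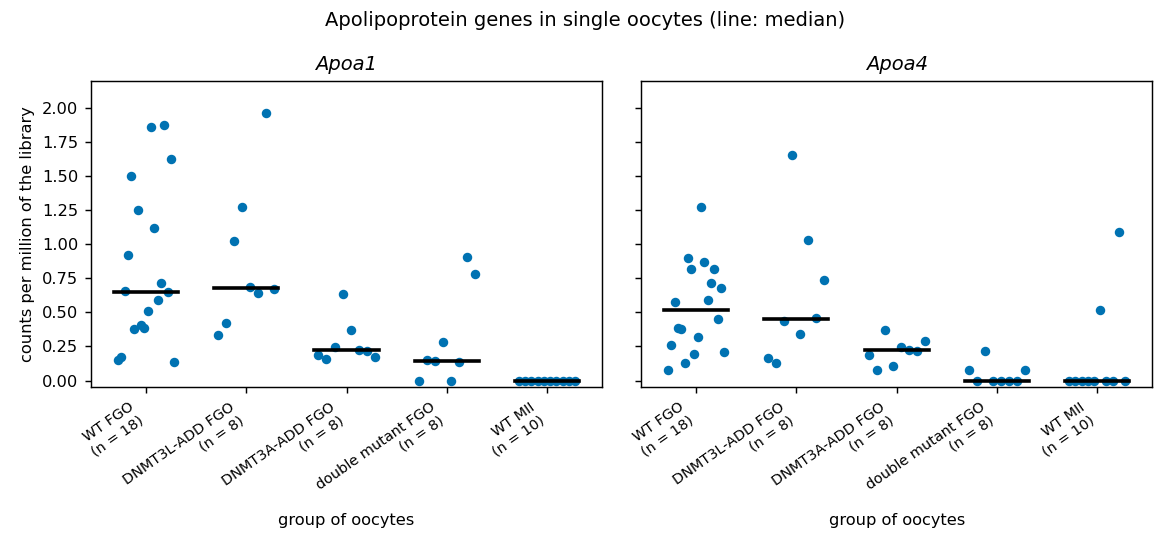
Level in CPM of Apoa1 (left) and Apoa4 (right) in each oocyte library (y axis) by group (x axis), with a line at the group median. Double mutant FGOs have medians of 0.145 CPM for Apoa1 and 0 for Apoa4, against 0.653 and 0.515 CPM in wild-type FGOs, and the points of the groups overlap.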

How the data were processed

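RNA-seq of 3 embryos from double mutant oocytes and of 52 single oocytes was used. The embryos were dissected at embryonic day 9 by the labels, and their RNA was polyA-selected. The authors aligned reads to mm10 with STAR, and the labels also name HTSeq. The allele assignment tool and the annotation release are not given in the sources used here. The authors deposited raw counts per gene, without normalization, for oocytes, and counts per allele for embryos. In the allelic tables, 8 columns named for wild-type embryos, which match no sample of the series, were not used.

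Members and gene lists were chosen with earlier results of these data known, and the list of ovarian somatic markers was added after seeing the data. Genes named were the 7 members, of each list the 4 with the highest mean allelic count in CPM together with any gene passing the allelic test, and up to 8 genes nearest to the members among those varying as much. Of the ovarian list, added later, the leading markers were named. Prl8a2, Col3a1, Serpinc1 and the genes named as being at 0 were named after their values were seen. A gene that the rule names is not reported here.

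Maternal shares were computed at 10 or more allelic counts, with 95% Wilson intervals. Ratios between embryos have exact conditional intervals. Both cover counting error only, and 0 counts were taken to allow 3. Alleles were tested in edgeR 4.0.16 (R 4.3.3; quasi-likelihood, filterByExpr with a minimum count of 10) with the embryo as a block and its allelic total as library size for both alleles, and the 42 FGOs in 1 fit of 4 genotypes with TMM factors. P-values were adjusted over all genes tested (Benjamini-Hochberg). Nothing says that embryos or oocytes of a group came from separate mothers, so p-values measure the spread between these samples. The tests were checked on simulated counts. Alternatives were DESeq2 1.42.0, other scaling and filters, no block, single embryos left out, the replicate number as a block, and wild-type FGOs of 1 mapping class. Totals per library ran from 6998944 to 8547786 allelic counts in embryos and from 7832458 to 23739871 counts in oocytes.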

Additional observations from a re-analysis of the deposited data

Results flagged for a closer look

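In 8 of 28 tests, each of 1 member in 1 group of oocytes, 1 library stood far above the others of its group by Dixon's test of the gap to its nearest neighbour. The test flags about 1 in 20 groups of normally distributed values by chance, which counts this low are not, and a single library with a count among libraries at 0 is flagged by construction. The 18 wild-type FGOs were too many for this test. Apoa1 was at 0.635 CPM (12 counts) in DNMT3A-ADD FGO replicate 4, with the next library at 0.368 CPM, and Apob was at 3.49 CPM (66 counts) in the same library, with the next at 0.740 CPM. Apob was at 5.31 CPM (126 counts) in DNMT3L-ADD FGO replicate 2, with the next at 2.44 CPM. Apoa4 was at 0.213 CPM (3 counts) in double mutant FGO replicate 3 and at 1.09 CPM (14 counts) in wild-type MII replicate 9. Ttr was at 0.134 CPM (2 counts) in double mutant FGO replicate 6 and at 0.0692 CPM (1 count) in wild-type MII replicate 7, and was not counted in the other libraries of these groups. Alb was at 0.393 CPM (6 counts) in DNMT3L-ADD FGO replicate 7, with the next at 0.147 CPM. The embryos form a group of 3, which is too small for this test.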

How the results depend on the processing

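For the alleles in embryos, DESeq2 called 1 of the 5 members (Apoa1) where the quasi-likelihood test called 0. Over all genes the call count was 62, against 105 with equal allele totals, 730 with DESeq2, 97 without a filter on low counts and 53 without the embryo as a replicate block. Leaving out single embryos gave 0 to 381 (381 without embryo 1, 22 without embryo 2 and 0 without embryo 3). The sign of the log2 ratio, which passed no threshold, turned for Apoa4 (0.63 without the replicate block, and -0.94 to 0.28 with 1 embryo left out), for Apob (-0.40 to 0.012 with 1 embryo left out) and for Hnf4a (-0.091 with equal allele totals, and -0.048 to 0.29 with 1 embryo left out). The median over the 5 members of their mean maternal share was 47.6%, against 53.8% with 100 counts required, 42.7% with equal allele totals and 49.0% to 53.8% with 1 embryo left out.

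For double mutant against wild-type FGOs, 2 members were called, against 1 without a filter on low counts (Apoa1 at an adjusted p of 0.0784 from edgeR), 1 with the replicate number as a block (Apoa4, log2 change -3.06, adjusted p = 0.0145 from edgeR; Apoa1 -1.24, adjusted p = 0.283), 0 with wild-type FGOs of the same mapping class and 1 with that class and no filter. Over all genes 260 were called, against 128 with the replicate block, 110 with the same mapping class and 154 with that class and no filter. The log2 change of Afp was -0.32 with the replicate block, -0.18 with the same mapping class and -0.19 with that class and no filter. Same-numbered oocytes did not deviate together (8 pairs, correlations from -0.517 to 0.471, 1 of 8 best with its own number), so that the numbers do not pair the samples. Numbers 9 to 18 occur only in wild-type FGOs. The fit with the replicate block therefore compares the double mutant with wild-type FGOs 1 to 8, as the fit with the same mapping class does. Beyond this, the cause of these differences was not tested. The mean summed level of the members in embryos was 1010 CPM and ran from 474 to 1461 CPM with 1 embryo left out. Apoa4 rests on 14 counts in embryo 1, and too few counts of Ttr and Alb were found for a share.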
